A study of Mus musculus with 6 samples.

Results

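The O(WT)SK time course follows mouse embryonic fibroblasts that received the standard trio of reprogramming factors, wild-type OCT4, SOX2 and KLF4, through days 3, 5 and 7. Its members are the 3 arrays whose labels name this combination, 1 array a day, of 6 arrays in all. The other 3 arrays are the same days with O(5R)SK, in which SOX2 and KLF4 were given with an OCT4 version called 5R, and the labels do not explain the 5R change. All cells were of strain B6CBAF1/J and grew in a stem cell medium that held fetal bovine serum and recombinant LIF, the leukemia inhibitory factor. Trizol was used to take up total RNA, which was made into biotin-labelled cRNA for Affymetrix arrays. Fibroblasts without factors were not analysed here, so day 3 is the starting point of every difference. With 1 array a day and no replicate, no test was made, and nothing in the labels says whether the days come from separate cultures. Words such as higher, gained or dropped therefore describe the readings of these arrays only.

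OCT4, SOX2 and KLF4 are transcription factors that can turn fibroblasts into pluripotent stem cells. In mouse fibroblasts the conversion is known to begin with the loss of fibroblast identity and a shift from mesenchymal to epithelial gene expression, and the stable pluripotency network comes on late. KLF4 is known to activate epithelial genes, and OCT4 and SOX2 bind side by side at many genes of the pluripotent state.

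The values were linear intensities, and all differences below were taken on the scale log2(intensity + 16) with 1 probe set for each gene. A fold is 2 to the power of such a difference and understates the change of dim genes. A gene was called bright if its mean over the 3 arrays was above 200, which held for 8826 of 18193 genes. Of 8 fibroblast markers 7 were bright on these arrays. Col1a2, a subunit of fibrillar collagen, read 26409, 27725 and 31887 over days 3, 5 and 7, and the intermediate filament gene Vim read 40322, 43878 and 44632. The exception was Pdgfra, a receptor of fibroblast progenitors, at 81.7, 95.3 and 69.1.

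Most array measures differed little over the days. The median intensity was 59.4, then 61.3, then 61.4, the 3' to 5' signal ratio of Gapdh 0.797, 0.768 and 0.803 and of Actb 1.11, 1.21 and 1.23, and 18 added hybridisation controls differed between day 7 and day 3 by -0.17 to 0.26. Control probe sets of the Dap, Lys, Phe and Thr type differed more widely, from -0.45 to 0.39. Second probe sets give a measure of precision. Over 3456 genes with another bright probe set, the day 7 minus day 3 differences of the pair differed from each other with an SD of 0.33. Divided by the square root of 2, for 1 probe set, that is 0.23. Both probe sets were read on the same arrays. The scatter therefore covers error that differs between probe sets, and not error shared by a whole array or the spread between cultures.

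Most genes moved little. The day 7 minus day 3 difference of bright genes had a median of 0.01 and an SD of 0.43, and 83.7% lay within 0.5 of 0. At least 2-fold higher on day 7 were 199 genes (2.25% of bright genes) and at least 2-fold lower 107 (1.21%), 306 together (3.47%). The brightness limit uses the same arrays, so 70 of the higher genes, which read 200 or less on day 3, passed it through their later values, and 26 of the lower genes, at 200 or less on day 7, through their earlier ones. Above 0 by any amount lay 51.3%. At least 4-fold differences were seen for 26 higher and 7 lower genes. Over the single steps fewer genes passed 2-fold. From day 3 to day 5, 48 genes were higher (0.544%) and 27 lower (0.306%), and from day 5 to day 7, 35 were higher (0.397%) and 12 lower (0.136%). The genes nearest to the threshold were Adgrg6, inside at 1.00 (989.8, 1369 and 2001), and Tbc1d17, just outside at 0.998 (145, 212 and 305). At the brightness limit stood Adamts9 with a mean of 200.1, inside, and Ephx2 with 199.9, outside.

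Among the genes past 2-fold the course was close to even in time. Of the 306 genes 302 were monotone, and the first step, from day 3 to day 5, made up a median of 56.0% of the whole difference. Choosing genes by their end points favours such an order. Over all bright genes the day 5 value missed the midpoint of days 3 and 7 by an SD of 0.16, and 89.9% lay within 0.25 of it. That share says little about timing. For the 83.7% that differed by under 0.5, any day 5 value between the end points lies within 0.25. Genes were sorted into early (the first step at least 75% of the difference), late (the second step at least 75%) and spread (all others). The spread class held 165 of the higher and 89 of the lower genes. Early were 23 higher and 12 lower genes, late were 11 higher and 6 lower.

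**Figure D1:**
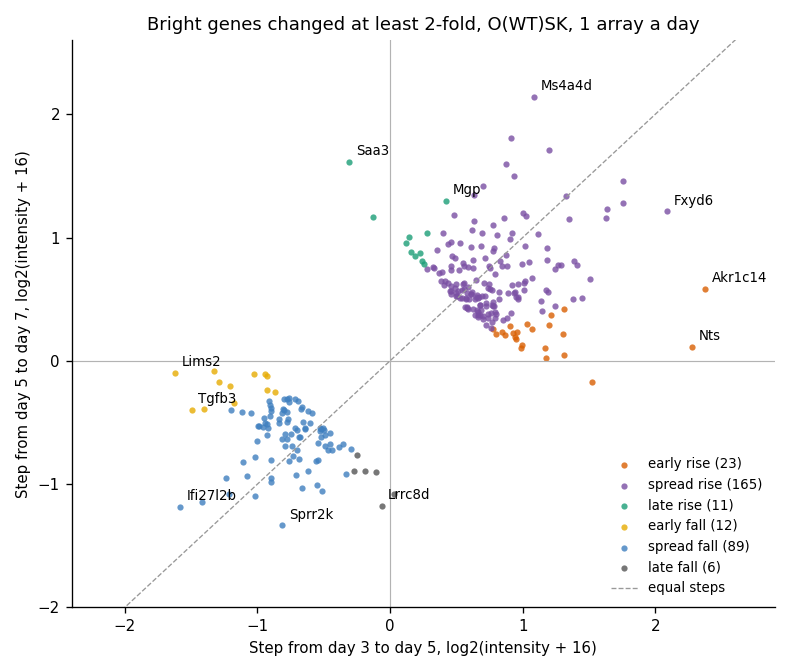
Each point is 1 of 306 bright genes at least 2-fold higher or lower on day 7 than on day 3 with O(WT)SK. The x axis is the step from day 3 to day 5 and the y axis the step from day 5 to day 7, both as differences of log2(intensity + 16), with 1 array a day. Colours give the time pattern, and the dashed line marks equal steps. Most points lie near that line, with the early genes along the x axis and the few late genes along the y axis.

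Early higher genes had most of their gain by day 5. Akr1c14, an aldo-keto reductase of steroid metabolism, read 766 on day 3, 4034 on day 5 and 6053 at the end, a difference of 2.96 of which 80.3% came in the first step. Nts, which encodes the peptide neurotensin, read 82.6, 461 and 501 (2.39, 95.2% in the first step). Abcb1a, a drug efflux pump, read 524, 1326 and 1778 (1.73). All 3 stood far above their day 3 level by day 5, and Nts was nearly flat from there on. The other early genes named by size were Nkain4 (626, 1469 and 1909), the membrane protein gene Popdc3 (99.0, 268 and 313) and the calpain protease gene Capn5 (236, 562 and 691).

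Late higher genes gained mainly after day 5. Mgp, the matrix Gla protein that inhibits calcification, read 3747, 5037 and 12394, so 1.30 of its difference of 1.72 came in the second step. Saa3, an acute phase serum amyloid gene, read 177, 140.3 and 462, below its starting level on day 5 and above it on day 7. Ramp3, a receptor partner for adrenomedullin, read 305, 373 and 783. In these 3 genes day 5 lay closer to day 3 and day 7 stood apart. The same held for Reep1 (328, 364 and 747), Tesc (157, 186 and 355) and the semaphorin gene Sema6d (714, 779 and 1525).

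The largest differences of the course were in the spread class. Fxyd6, a regulator of the sodium pump, read 74.0, 368 and 872, a difference of 3.30 or 9.86-fold. The membrane protein gene Ms4a4d read 50.8, 126 and 607 (3.22). Serpinb1a, an inhibitor of neutrophil proteases, read 117, 433 and 1220.4 (3.21). Each gained on both steps, and for Ms4a4d the second step was the larger, 2.14 against 1.08. Further members were the ferritin receptor gene Scara5 (100.5, 377 and 936), the collagen-binding proteoglycan gene Fmod (243, 579 and 1927) and Srgn (1348, 4218 and 9947), which encodes serglycin, a secretory granule proteoglycan. Sizes depend on the settings for some of them: Ms4a4d read 2.55 with a pseudocount of 64, and the mean of all probe sets gave 1.69 for Scara5 in place of 3.03, 2.47 for Serpinb1a and 2.22 for Fmod.

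Among lower genes, the early class was led by a growth factor. Tgfb3, a ligand of the transforming growth factor family, read 7364, 2602 and 1971, a difference of -1.89 of which 79.0% came in the first step. Lims2, a focal adhesion adaptor, read 1772, 566 and 528 (-1.72, with 94.4% in the first step). Cd52, a leukocyte surface antigen, read 487, 174 and 129 (-1.79). Lims2 was level after day 5 and the other two kept a smaller loss. Also early were the protease inhibitor gene Tfpi2 (1060.5, 461 and 361), the lipid transporter gene Abca5 (1787, 764 and 661) and the phospholipase gene Plcb4 (1511, 608 and 539). For Plcb4 the mean of probe sets gave -0.40 in place of -1.46.

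The spread class of lower genes held the largest losses. Ifi27l2b, an interferon-inducible family member, read 564, 177 and 69.0, a difference of -2.77. Clec4d, a C-type lectin receptor of myeloid cells, read 579.7, 207 and 85.0 (-2.56), and Siglecg, a sialic acid-binding receptor of leukocytes, read 4289.7, 1844 and 865 (-2.29). These lost about as much in each step. Pmch, the precursor of melanin-concentrating hormone, read 1497, 627 and 317, and the orphan receptor gene Gpr149 read 1341, 654 and 297. Sprr2k, of the cornified envelope family, read 3911, 2222 and 872, with the larger loss after day 5 (-1.33 against -0.81).

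The late class of lower genes was small, and second probe sets showed only part of it. The epithelial keratin genes Krt19 (1684, 1390.4 and 740.3) and Krt20 (1152, 969 and 564) and the fibrinogen-like gene Fgl2 (582, 539 and 282) dropped mainly after day 5. For the other 3 late genes another bright probe set did not show the drop. The ion channel subunit gene Lrrc8d read 671, 641 and 275 on its main probe set and 357, 452 and 435 on the second. The GTP-binding protein gene Gtpbp2 read 682, 697 and 321 against 395, 466 and 521, and Pkmyt1, a kinase that holds back mitosis, read 279, 243 and 123 against 209.9, 176 and 218. With the mean of probe sets Lrrc8d read -0.48 and Gtpbp2 -0.03. Of all 306 genes, 77 had a second bright probe set; 72 of these went the same way on it and 47 passed 2-fold.

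**Figure D2:**
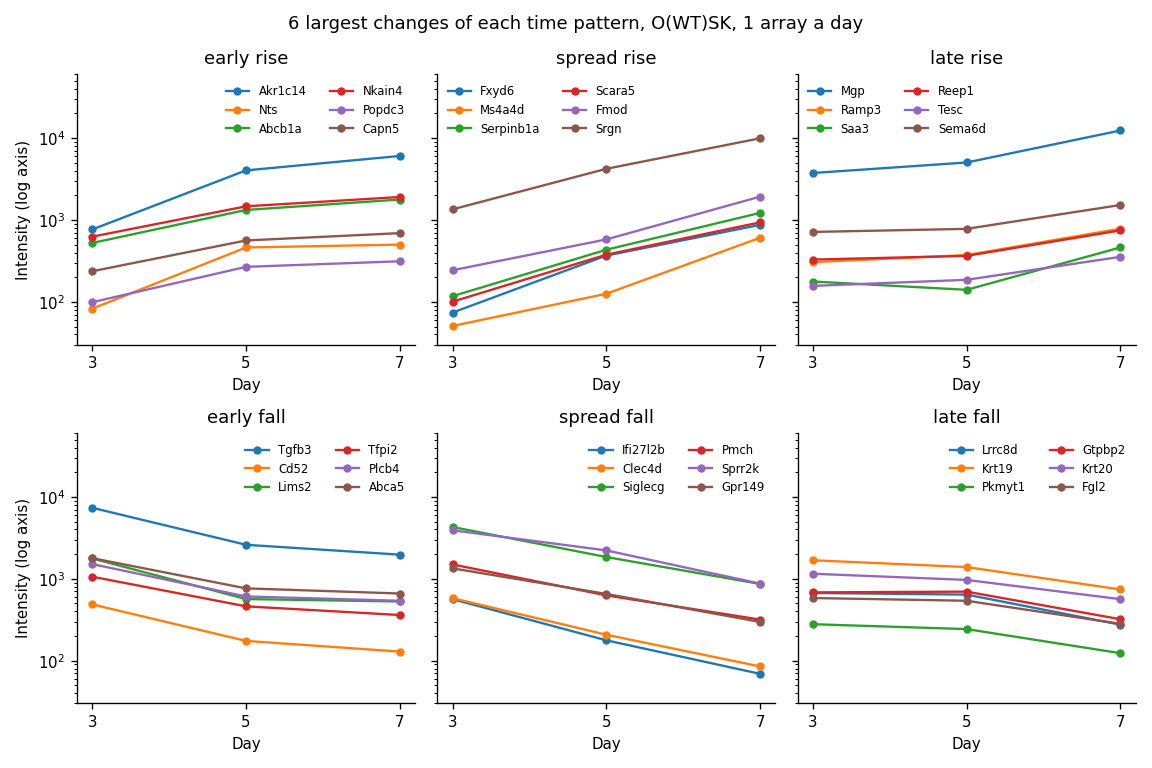
Intensity (log axis) on days 3, 5 and 7 of the 6 largest changes in each time pattern with O(WT)SK, 1 array a day, with 1 line for each gene. Early genes such as Akr1c14 (766, 4034 and 6053) bend at day 5, and spread genes such as Fxyd6 climb or drop on both steps. Late genes such as Mgp (3747, 5037 and 12394) change mainly after day 5.

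The O(5R)SK arrays took no part in the brightness limit or the 2-fold choice, though the probe set of each gene was chosen over all 6 arrays. With O(5R)SK 2.52% of bright genes were at least 2-fold higher and 1.3% at least 2-fold lower on day 7, and 48.4% lay above 0. Of the 199 higher genes all 199 lay above 0 there and 145 passed 2-fold (72.9%). Of the 107 lower genes 101 lay below 0, against 51.6% of all bright genes, and 68 passed 2-fold (63.6%). The time pattern carried over in part. Among genes that also passed 2-fold with O(5R)SK, the first step made up a median of 72.0% for the 13 early higher genes, 52.4% for the 126 spread and 29.8% for the 6 late ones. For lower genes it made up 83.2% for 7 early, 52.9% for 59 spread and 35.7% for 2 late genes. Of the 6 late lower genes 4 went the same way there and 0 were late again. Of the 13 early higher genes 5 were early again and 8 were spread. No difference between the combinations was tested here.

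Of the 6 lower genes not below 0 with O(5R)SK, Ell (0.04) and Dmxl1 (0.02) were level and Lrrc8d (0.58), Gtpbp2 (1.00), Nek2 (0.73) and Fbxl5 (0.40) were above 0. Nek2, a centrosome kinase, read 371, 214 and 137 in the O(WT)SK course, against 247, 194 and 419 in the other. For Ell, Lrrc8d and Gtpbp2 the second bright probe set did not drop with O(WT)SK either.

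**Figure D3:**
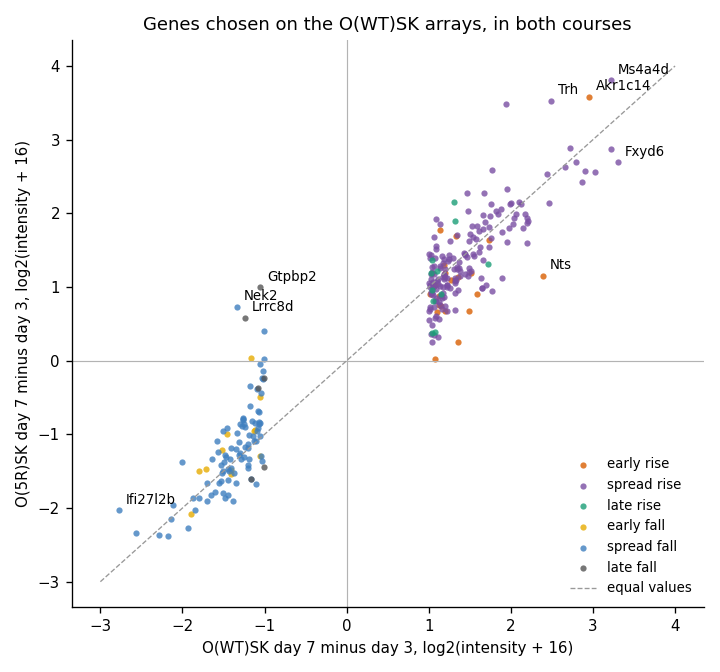
Each point is 1 of the 306 genes chosen on the O(WT)SK arrays. The x axis is its day 7 minus day 3 difference with O(WT)SK and the y axis the same with O(5R)SK, both of log2(intensity + 16), 1 array a day, and the dashed line marks equal values. All 199 higher genes lie above 0 on the y axis, and 6 of the 107 lower genes, among them Gtpbp2, Nek2 and Lrrc8d, lie above it too.

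Gene groups were described with 37 lists of 872 genes, of which 807 were matched on the array and 529 were bright. Macrophage and leukocyte markers dropped over the same days, with a summed intensity of 29869.9, 16725 and 11620.4 over all 27 matched ones. Their part in the values of the other lists was not tested. In these bulk samples fewer cells of a type and less RNA per cell cannot be told apart.

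Contractile and smooth muscle genes, the actin and myosin machinery of stress fibres, moved together. All 30 listed were matched and 29 were bright. At least 2-fold lower were 8 of 29 (1.21% of all bright genes were), at least 2-fold higher 0, and 28 of 29 lay below 0 against 48.7% of bright genes. The list median was -0.60, beside 0.01 over all bright genes, and was spread over both steps (-0.29 and -0.27). With O(5R)SK the median was -0.67.

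Members that organise actin filaments were far down. Lmod1, a leiomodin that nucleates actin, read 1378, 629.8 and 349 (-1.93). Mylk, the myosin light chain kinase gene, read 3217, 1796 and 1259 (-1.34), and Synpo2, an actin-bundling protein, read 430.5, 234 and 164 (-1.31). Each lost on both steps, and Synpo2, below 200 on day 7, passed the brightness limit through its earlier values. Among regulators, Ankrd1, a mechanically induced cofactor, read 12615, 7175 and 4617 (-1.45). Srf, the serum response factor that drives contractile genes, read 1435, 907 and 637 (-1.15). Filip1l, a filamin-interacting protein, read 5883, 3573 and 2446, and Fhl1, a LIM domain protein of muscle, read 19557, 13529 and 9112. All of these dropped without a pause at day 5. Myh11, smooth muscle myosin, read 1107, 756 and 427 (-1.34), but its other probe set was dim at 38.0, 81.9 and 77.0, and the mean of probe sets gave -0.28.

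Among abundant members Fhl1 and Ankrd1 dropped, as given above, while others barely moved. The summed intensity of all 30 matched members was 423312, 368825 and 322516. Acta2, smooth muscle actin, read 37572, 37268 and 38533, and Tagln, transgelin, read 26949, 27019 and 24265. These readings are near the highest on the arrays, 44332 to 47606, and whether the top of the scale bears on them was not tested.

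Serum response factor is known to bind the CArG box, in which CC and GG flank 6 bases that are each A or T and which reads alike on both strands. It was looked for in RefSeq promoters (GRCm38.p6) that run from 250 bases before to 50 after a gene's start. It was found for 7 of 24 bright contractile genes with a promoter (29.2%), for 3 of the 7 at least 2-fold lower, and for 7 of 75 lower genes of all kinds (9.33%). Of 142 higher genes 1 held it (0.704%), of bright genes 1.64% and of all promoters 1.81%. The 3 lower contractile genes were Fhl1, Filip1l and Srf, and their 150 bases before the start are shown because they are the lower contractile genes that carry the box, which is in capitals. The box begins 102 bases before the start in Fhl1 and 62 in Filip1l. Srf has 2 boxes, beginning 82 and 62 bases before its start.
Fhl1, chrX:56779533-56779682, plus strand: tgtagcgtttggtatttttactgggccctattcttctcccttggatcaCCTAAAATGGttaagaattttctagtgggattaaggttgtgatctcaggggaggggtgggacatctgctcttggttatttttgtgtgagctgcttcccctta
Filip1l, chr16:57549092-57549241, plus strand: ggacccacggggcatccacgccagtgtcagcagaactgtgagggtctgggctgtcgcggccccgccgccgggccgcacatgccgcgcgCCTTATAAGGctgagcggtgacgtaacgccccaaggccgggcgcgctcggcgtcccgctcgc
Srf, chr17:46556163-46556312, minus strand: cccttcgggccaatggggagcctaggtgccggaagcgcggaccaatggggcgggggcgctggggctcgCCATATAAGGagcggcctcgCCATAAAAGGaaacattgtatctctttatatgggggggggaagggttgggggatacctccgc

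A match is a description of letters and not of binding, and Lmod1, Mylk, Synpo2 and Ankrd1, which dropped as much, had no CArG box in this window. Other motifs were searched on both strands and counted apart, so they may overlap. The octamer ATGCAAAT, the letters that OCT4 and its relatives are known to bind, was found for 7 of 142 higher (4.93%) and 3 of 75 lower genes (4.0%), beside 1.45% of bright genes. CACCC, the core letters of Kruppel-like factor sites, was found for 75.4% of higher and 69.3% of lower genes, beside 66.2% of bright genes. TTTCCCGC, an E2F site, was found for 4 of 23 DNA replication and G1/S genes (17.4%), beside 2.51% of bright genes.

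The delivered factors and their partner Myc changed little from day 3 to day 7. Pou5f1, which encodes OCT4, read 2290.1, 2292 and 2741, and Klf4 read 3008, 2861 and 3449. Sox2 was dim at 16.5, 31.7 and 34.1. Myc, a growth regulator that was not delivered here, read 2100.4, 1725 and 1734. Whether these probe sets read the delivered copies was not tested.

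The pluripotency list, 36 regulators and marker genes of which 35 were matched, was mostly dim, with 10 bright. Of these 2 were at least 2-fold higher (2.25% of bright genes were) and 0 lower, and the median was 0.23, or 0.56 with the mean of probe sets. Jam2, a junctional adhesion molecule, read 912, 2089.8 and 3704 (2.00, or 1.38 with the mean of probe sets). Lefty1, an antagonist of Nodal signalling, read 216, 288 and 459 (1.03), and L1td1, an RNA-binding protein of stem cells, read 478, 585 and 902 (0.89). These gained on both steps with O(WT)SK, while with O(5R)SK the difference was 2.14 for Jam2 and 0.26 for Lefty1. Klf5 (719.9, 392 and 361) and Klf2 (476, 319 and 241), Kruppel-like factors of the naive state, stood at -0.96 and -0.94, Klf5 with 88.3% of it in the first step.

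Several dim pluripotency genes, picked with their values in view, read higher at low levels. Over all 35 matched members of the list the median difference was 0.26. Utf1, a chromatin factor of stem cells, read 7.52, 67.4 and 88.9, and Fbxo15, an early reporter gene of reprogramming, read 3.96, 28.3 and 53.4. Tfcp2l1, a naive-state factor, read 2.68, 4.95 and 87.7, so its reading stood out on day 7. Fgf4, a target of OCT4 with SOX2, read 106, 192 and 280.1. Core network genes stayed near the bottom of the scale: Nanog read 4.06, 8.08 and 16.7, Zfp42 read 6.79, 2.15 and 15.5, and Sall4 read 14.3, 22.7 and 21.9.

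Some epithelial junction genes gained, mainly in the first step. Of 36 listed 34 were matched and 6 bright, and 5 of the 6 lay above 0 (51.3% of bright genes did), with a median of 0.77 (0.45 in the first step, 0.15 in the second) and 0 at least 2-fold higher. Over all 34 matched members the median was 0.29. The desmosome genes Dsp (784, 1241 and 1454) and Pkp1 (305, 558 and 562) and the tight junction gene F11r (849, 1362 and 1525) were up by day 5 and gained little later. The protease inhibitor gene Spint2 (426, 362 and 703) gained only after day 5. Cdh1, which encodes E-cadherin, was below the brightness limit at 102, 170.1 and 252 (1.18). Krt19 went the other way, as given above. Among 6 bright keratin and cornified envelope genes Ivl, which encodes involucrin, was higher (200.1, 353 and 498, a difference of 1.25, or 1.88 with the mean of probe sets) and Sprr2k lower.

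Mesenchymal genes as a group stayed level. Of 21 bright members 0 were at least 2-fold higher and 2 lower (1.21% of bright genes were lower). Above 0 lay 11 (51.3% of bright genes did), and the median was 0.02. The 2 lower genes were Tgfb3 and the fibronectin receptor gene Itga5 (651, 341 and 246). Among transcription factors of the list, which repress epithelial or drive mesenchymal genes, Zeb1 read 1689, 2167 and 2373, Snai2 3116, 2979 and 3062, and Twist1 978, 1004 and 1073. These read level or higher on day 7, while Foxc2 (508, 414 and 340.3) read lower, at -0.56.

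A few matrix genes passed 2-fold, in both directions. Over all bright genes 2.25% were at least 2-fold higher and 1.21% lower. Of 17 bright collagen genes 1 was at least 2-fold lower, Col12a1 (4176, 2579.7 and 2058), and the list median was 0.02. For Col12a1 the mean of probe sets gave -0.38 in place of -1.01. Of 25 bright non-collagen matrix genes 3 were higher and 1 lower. The higher ones were Fmod, the spondin gene Spon2 (216, 356 and 478) and the basement membrane gene Nid2 (1871, 2734 and 3898). The lower one was the fibulin gene Fbln1 (419.6, 216 and 165). The 15 bright matrix proteases and inhibitors had 0 past 2-fold and a median of 0.02. Thy1, a surface marker of fibroblasts that is lost in reprogramming, read 9185, 6735 and 5755 (-0.67).

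Nearly all bright cell cycle genes were lower, most by less than 2-fold. Of 29 matched DNA replication and G1/S genes 27 were bright, and all 27 lay below 0 (48.7% of bright genes did), from -1.07 to -0.17, with a median of -0.40. Most of this came before day 5 (-0.33, then -0.09). Cdc6, which loads the replicative helicase, read 443, 304 and 202, the 1 member past 2-fold. The cyclin E genes Ccne1 (1172, 748 and 602) and Ccne2 (929, 546 and 483) and the primase gene Prim1 (880.2, 600.3 and 474) followed. Of 29 bright mitosis genes 28 lay below 0, beside the same 48.7%, with a median of -0.48 in steps of -0.29 and -0.19. The kinetochore motor gene Cenpe read 597, 377 and 254, the mitotic kinase gene Aurka 1188, 913 and 654, and the spindle motor gene Kif11 520.5, 327 and 294. With O(5R)SK the medians of these lists were -0.42 and -0.43.

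Among inhibitors of the cell cycle, 2 of the Ink4 family were higher. Cdkn2a, which encodes p16 and p19Arf, read 1123, 1921 and 2871 (1.34). Its neighbour Cdkn2b read 3369, 6140.5 and 7104 (1.07), early by the 75% rule. Their relatives Cdkn2c (605, 617 and 658) and Cdkn2d (772, 750.3 and 705) were level. Cdkn2a and Cdkn2b were the 2 of 20 bright CDK inhibitor and p53 target genes past 2-fold (3.47% of bright genes were, either way). Of the 20, 15 lay above 0 (51.3% of bright genes did) with a median of 0.27, or 0.16 with the mean of probe sets. The p53 target Cdkn1a was level at 13012, 13210.3 and 14031. Of 23 bright ribosome biogenesis genes 21 lay below 0 (48.7% of bright genes did). Their median was -0.32, mostly after day 5 (-0.09, then -0.20), while 21 ribosomal protein genes had a median of 0.00. With O(5R)SK the medians were -0.46 for ribosome biogenesis and -0.25 for ribosomal protein genes.

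**Figure D4:**
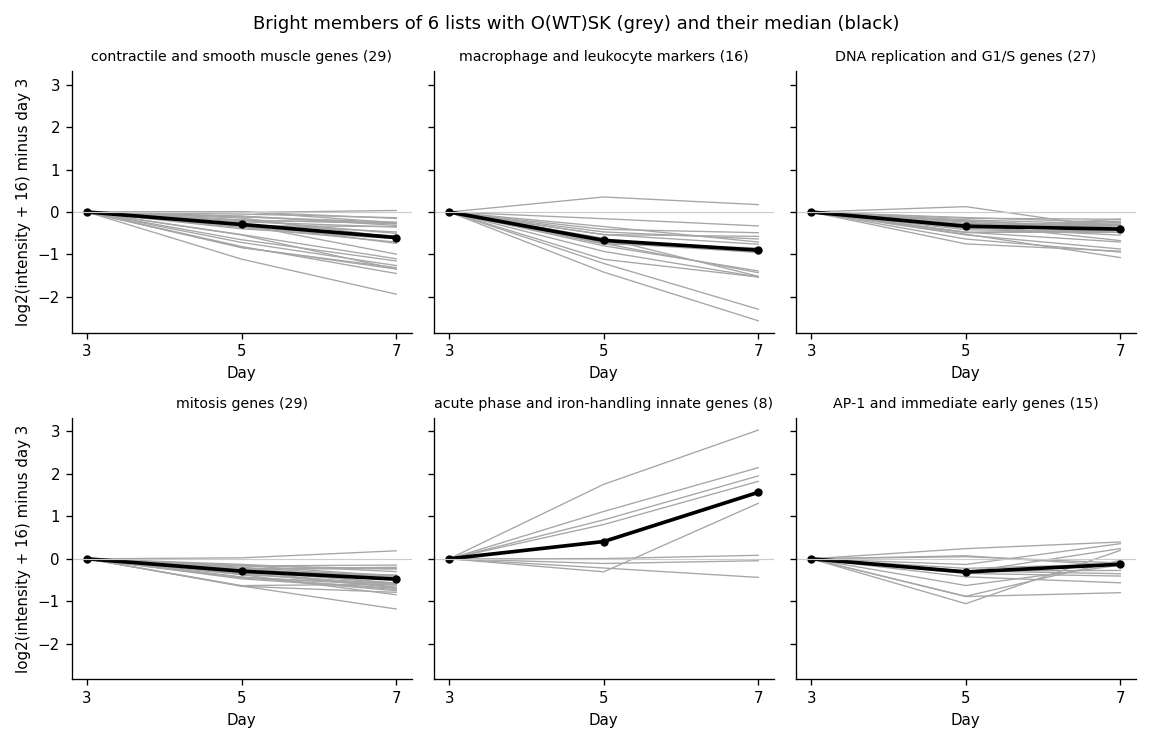
Difference of log2(intensity + 16) from day 3 on days 3, 5 and 7 with O(WT)SK, 1 array a day. Grey lines are bright members of 6 lists, their number is in brackets, and black lines are medians. Contractile genes lose evenly (median -0.60 on day 7), G1/S genes mostly by day 5 (-0.40 on day 7), and several immediate early genes dip on day 5 and return.

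A dip or peak on day 5 was rare. No bright gene stood at least 2-fold above both other days (0%), and 3 stood at least 2-fold below both (0.034%). Egr1, an immediate early transcription factor induced by serum, read 3767, 1804 and 4326, and with O(5R)SK 4891, 1770.0 and 3279. The ribosome assembly gene Mpv17l2 read 1078, 456 and 1009, and the T cell kinase gene Zap70 340.2, 48.0 and 428. With O(5R)SK these were 1221, 955 and 786 for Mpv17l2 and 220.0, 148 and 155 for Zap70, so a day 5 low between higher neighbours was seen there for Egr1 and, by a small amount, for Zap70.

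Other immediate early genes were low on day 5 too. Of 15 bright AP-1 and immediate early genes 9 were below both other days on day 5 by any amount, beside 21% of all bright genes, and with O(5R)SK 8 of 15 were, beside 20.9%. Fos read 2242, 1209.7 and 2187, Ier2 1969, 1268 and 1772, and Nr4a1 2662, 2141 and 3147. By day 7 these had come back to near their day 3 level, and 0 of 15 passed 2-fold. Zfp36, which destabilises cytokine mRNA, read 1079, 576 and 614 and did not come back.

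A few acute phase, complement and iron-handling genes were higher. Of 24 acute phase and iron-handling genes 21 were matched and 8 bright, and 5 of the 8 were at least 2-fold higher (2.25% of bright genes were). Cp, Saa3 and Scara5 read below 200 on day 3 and passed the brightness limit through their later values, so this count and the median of the 8 are a description only. The median of the 8 was 1.57, with the larger share after day 5 (0.41, then 1.02), and that of all 21 matched was 0.08, since most others were dim and level. C1s1 (298, 663 and 1371) and C1ra (236, 459 and 957), proteases of the complement C1 complex, gained about as much on each step. The iron oxidase gene Cp, ceruloplasmin, read 89.7, 169 and 358 (1.82, or 0.98 with the mean of probe sets). Scara5 and Saa3, given above, were the others. The iron genes Tfrc (2688, 2312 and 1981), Slc39a14 (872, 807 and 845) and Fth1 (20174, 20251 and 21368) did not join them. With genes brighter than 400 only, the list median was 1.02.

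Cytokines went both ways. Il6 read 392, 1047 and 1492 (1.89) and the monocyte chemokine gene Ccl2 read 2131, 3782 and 5573 (1.38). Csf1, the growth factor of macrophages, read 8615, 5251 and 2763 (-1.64). Of 9 bright interferon-stimulated genes 0 passed 2-fold, with a median of -0.02.

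Most macrophage and leukocyte markers were lower on day 7. All 27 listed were matched and 16 were bright, of which 7 were at least 2-fold lower (1.21% of bright genes were) and 15 lay below 0 (48.7% did), with a median of -0.90 (-0.67, then -0.30). Members such as Clec4d and Adgre1 read below 200 on day 7 and passed the brightness limit through their earlier values. This count and median are therefore a description only. Over all 27 matched the median was -0.84, and with genes brighter than 400 only it was -1.41. The summed level of all 27 is given above. Lyz2, lysozyme, read 6294, 3301 and 2172, Adgre1, the F4/80 antigen, 382, 243 and 123, the pore-forming gene Mpeg1 678, 305 and 224, and the signalling adaptor gene Tyrobp 762, 449.7 and 273. The receptor gene Csf1r read 819, 562 and 478 and the leukocyte antigen gene Ptprc 226, 108 and 109, while Cd163 was at the bottom of the scale throughout (0.843, 0.774 and 3.95). Clec4d and Siglecg are members of this list and are counted in it. Cd52 and Csf1, which are not on it, also dropped. The part that macrophages had in those losses was not tested. With O(5R)SK the median was -1.16.

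Some secreted Wnt antagonists were higher. Of 14 bright genes of the Wnt list 3 were at least 2-fold higher (2.25% of bright genes were) and 0 lower, with a median of 0.55. That median was 0.27 with genes brighter than 400 and 0.29 with the mean of probe sets. The 3 higher genes were the Wnt-binding genes Sfrp4 (125, 213 and 597) and Sfrp1 (222, 299 and 629.6) and the co-receptor blocker gene Dkk2 (899, 1713 and 2626). Sfrp4 and the list member Rspo3 (199.6) read below 200 on day 3 and passed the brightness limit through their later values. The count and the median of the 14 are therefore a description only. Over all 30 matched members the median was 0.48. In the TGF-beta and BMP list Grem1, a BMP antagonist, was higher (1090.5, 1837 and 3141), Tgfb3 and the latency protein gene Ltbp1 (1931, 1205 and 914) were lower, and the median of 23 bright members was 0.00. In the insulin-like growth factor family Igf2 read 3525, 1811 and 1241 (-1.49) and the binding protein gene Igfbp4 593, 1045 and 1362 (1.18). Ddit3, a stress transcription factor, read 1451, 2818 and 3195. It was the 1 of 19 bright unfolded protein and amino acid stress genes past 2-fold (3.47% of bright genes were, either way).

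Other lists had small medians. With 0 members past 2-fold, these were 0.11 for 18 bright Hox genes (0.02 above a brightness of 400), 0.04 for 28 respiratory chain genes, 0.18 for 23 cholesterol and fatty acid synthesis genes, -0.14 for 24 polycomb and chromatin genes and -0.28 for 11 Kruppel-like factors. Of the 24 polycomb and chromatin genes 20 lay below 0 (48.7% of bright genes did), and 12 were below both other days on day 5 (21%), with 7 so placed with O(5R)SK (20.9%). Their median was -0.07 with the mean of probe sets. With O(5R)SK 13 of the 24 lay below 0 (51.6% of bright genes did), with a median of -0.02. Medians there were -0.01 for Kruppel-like factors, 0.21 for Hox, -0.10 for respiratory chain and 0.12 for cholesterol and fatty acid synthesis genes. Glycolysis and hypoxia genes had a median of -0.06 with 1 of 19 at least 2-fold lower (1.21% of bright genes were), the vasodilator gene Adm (2020.3, 1171 and 873). Among markers of other cell types, few were bright: 3 of adipocytes, 3 of endothelium, 3 of striated muscle, 9 of nerve and glia and 1 of trophoblast, endoderm and germ cells. Fabp7, a fatty acid-binding protein of glia and stem cells, read 847, 2023 and 3404, Lpl, lipoprotein lipase, 4193, 2606 and 1490.0, and skeletal actin Acta1 10678, 6414 and 3745. Myh1, a fast muscle myosin, read 104, 170.3 and 456 (1.97, or 1.30 with the mean of probe sets), so the muscle markers did not move as a group.

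**Figure D5:**
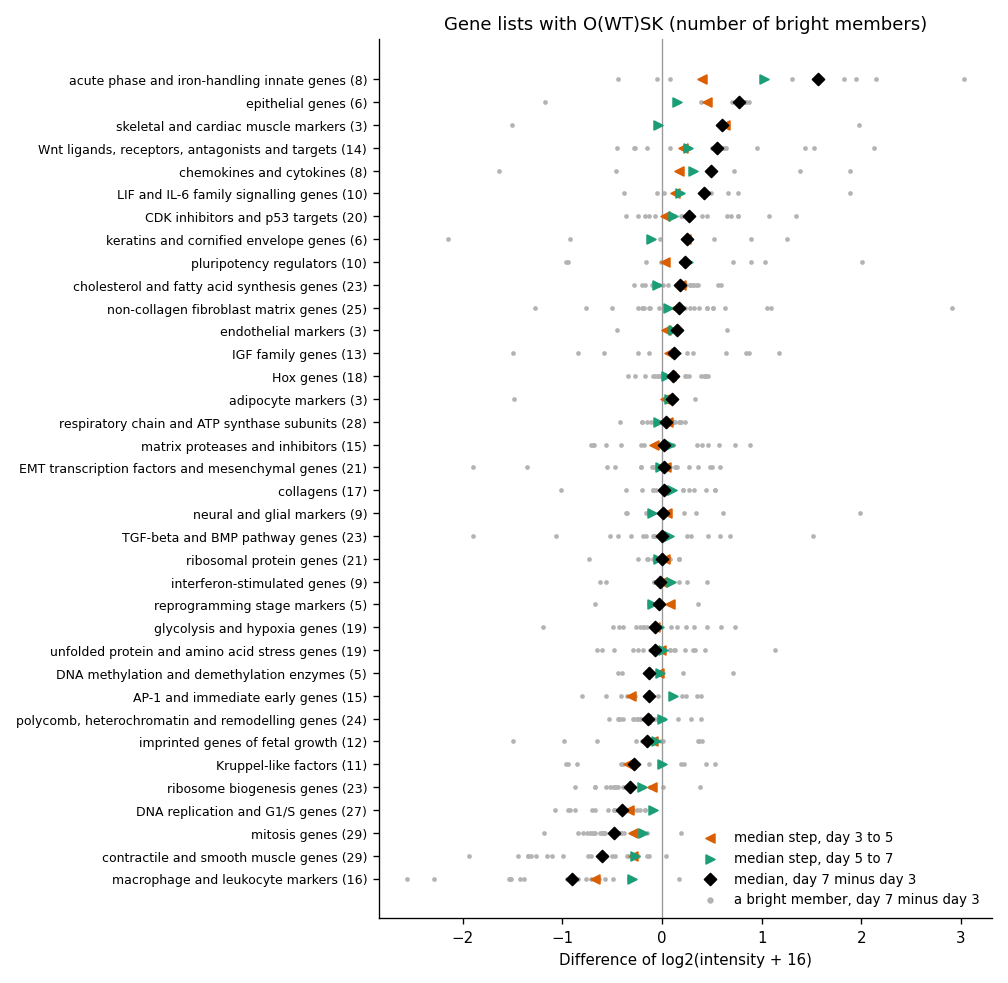
Day 7 minus day 3 difference of log2(intensity + 16) with O(WT)SK for the gene lists with at least 3 bright members, 1 array a day. Grey points are bright members, black diamonds list medians, and triangles the medians of the 2 steps, with the number of bright members in brackets. Medians run from -0.90 for macrophage markers to 1.57 for acute phase and iron-handling genes, and most lie near 0.

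Dim genes add cases with low starting values. Of 1804 genes with a mean of 200 or less and an array above 100, 136 were at least 2-fold higher (7.54%) and 63 at least 2-fold lower (3.49%). The limit of 100 uses the same arrays and favours genes that differ between days. Among genes given below, Lix1 and Fbxo44 passed it only through day 7, and Marco and Ncf4 only through their earliest values. These shares are therefore a description only and are not comparable with those of bright genes. Lbp, the lipopolysaccharide-binding acute phase protein, read 20.2, 47.1 and 275, and Ucn3, a stress peptide of the urocortin family, 41.1, 76.2 and 391. The secreted ribonuclease gene Rnase1 read 20.5, 129 and 229, mostly by day 5. Lix1 (5.29, 9.47 and 104) appeared on day 7. The other 2 named by size were Egfl6 (44.5, 140.0 and 319) and Fbxo44 (13.6, 51.5 and 151).

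Of the 6 dim lower genes named by size, 4 are known from myeloid or other leukocytes. The chemokine gene Ccl5 read 229, 39.4 and 23.4, the scavenger receptor gene Marco 164, 46.4 and 20.5, and the oxidase subunit genes Cybb 319.9, 107 and 60.2 and Ncf4 124, 47.3 and 12.5. Ncf4 lost the same in each step (-1.15), and the other 3 lost more before day 5. Serpinb2, an inhibitor of plasminogen activators, read 297, 138 and 69.7, and Prrt1 117, 91.9 and 21.2. The size of such differences rests on the pseudocount. With 64 in place of 16, Lix1 went from 2.49 to 1.27, Fbxo44 from 2.50 to 1.47, Rnase1 from 2.75 to 1.80, Lbp from 3.01 to 2.01, Egfl6 to 1.82, Ucn3 to 2.11, Ccl5 from -2.63 to -1.74, Marco from -2.30 to -1.43, Ncf4 from -2.30 to -1.30 and Prrt1 from -1.84 to -1.09. The mean of probe sets gave 1.60 for Lbp, 1.46 for Fbxo44, -1.71 for Marco and -0.90 for Prrt1.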

How the data were processed

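Expression was measured on 6 Affymetrix arrays, 1 for each of 2 factor combinations on days 3, 5 and 7, and the 3 O(WT)SK arrays are described here. Groups and days came from the sample labels. The authors deposited linear intensities, 1 per probe set and array, made with affy per the submitters' processing notes; no source used here gives its version, summary method or background step. The deposited intensities have a 2% trimmed mean of 500 on each O(WT)SK array. Unused columns of per-sample values numbered 0.

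Of 45101 probe sets 34958 name 1 gene in the platform annotation, 932 several and 9211 none; 34754 of the first were matched to RefSeq genes (GRCm38.p6), with 0 symbols updated. The 64 control probe sets were left out. Where a gene had several (9010 genes), the probe set brightest on average over the 6 arrays was kept. Values were log2(intensity + 16). The number of arrays limits the precision, and no test was made. Members, lists, thresholds and the rule for named genes were chosen with earlier results of these data known.

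The rule names the 6 largest differences of each time pattern and direction, the 5 largest day 5 peaks or dips, the 4 largest of each list, the delivered factors and Myc, and the 6 largest dim genes each way. Predicted genes were skipped. Other list members, and genes of the closing part, were picked with their values in view. The sorting into patterns was tested on simulated data. The simulated differences were larger and their splits clearer than those of most genes here. It therefore does not show how well genes near the limits are sorted. Alternatives were a pseudocount of 64, quantile normalization, a common median, the mean of probe sets, the brightest probe set of the 3 arrays, brightness limits of 100 and 400, and a step share of 67%. Work was done in Python 3.11.15 with pandas 2.3.3, numpy 2.4.6, scipy 1.17.1 and matplotlib 3.10.9.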

Additional observations from a re-analysis of the deposited data

Results flagged for a closer look

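Ell, an elongation factor of RNA polymerase, was lower with O(WT)SK and level with O(5R)SK. Its main probe set was lower on day 7 than on day 3 by a log2 difference of -1.16 with O(WT)SK (372, 187 and 157) and level at 0.04 with O(5R)SK (214, 253 and 221). Each value rests on 1 array a day, the day 3 to day 5 steps of the combinations run opposite ways, and the difference was not tested. The second bright probe set of Ell read 209, 218 and 220.0 with O(WT)SK, without the drop.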

How the results depend on the processing

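No paired analysis was possible because each combination and day has 1 array and the labels give no replicate numbers; for the same reason no replicate could be left out. Of 10 counts 7 moved by over 1.5 times under some alternative. With a pseudocount of 64 the late class had 6 higher and 2 lower genes. Above a brightness of 400 there were 124 higher genes in all, 12 early, 105 spread and 7 late, and 7 early lower genes. Above 100 there were 37 early and 21 late higher genes, 13 late lower genes and 7 with a day 5 dip. With a step share of 67% there were 41 early and 20 late higher and 27 early lower genes. The brightness limits change the number of genes considered and the share changes the class itself; for the pseudocount the cause was not tested. Over all alternatives the higher genes numbered 124 to 284 and the lower genes 74 to 143, and counts under quantile normalization, a common median and the mean of probe sets stayed within 1.5 times of those reported.

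Of 24 lists with a median of at least 0.1 in size 2 turned sign, both with brightness above 100: DNA methylation and demethylation enzymes from -0.13 to 0.044 and striated muscle markers from 0.61 to -0.077, where more dim members entered. Of 12 lists with a median within 0.1 of 0, 7 turned sign under some alternative and have no settled direction: mesenchymal genes (0.02, or -0.02 with a common median), collagens, matrix proteases, interferon-stimulated genes, neural markers, reprogramming stage markers and the TGF-beta and BMP list. Of 185 named genes 24 moved by over 1.5-fold under some alternative and 0 of those past 2-fold turned sign. The scalings moved the median of bright genes to 0 (quantile normalization) or -0.03 (common median). Without replicates, differences near the scatter of 0.33 between 2 probe sets, or 0.23 for 1 probe set, cannot be told from error. That scatter leaves out error shared by a whole array. Values under 100 lie in the range where the pseudocount sets the size.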

Other observations

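Several genes of secreted peptides were among the genes at least 2-fold higher on day 7; they were picked out after their values were seen. Penk, the precursor of enkephalins, read 147, 283 and 888 (2.47), and Trh, thyrotropin-releasing hormone, read 54.8, 164 and 383 (2.49). Cck, cholecystokinin, read 148, 278 and 485, and Calcb, a calcitonin gene-related peptide, 494, 1011 and 1578. All 4 gained on both steps and had positive differences with O(5R)SK (2.14, 3.53, 1.76 and 0.98).

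Other single genes were picked out in the same way. Ahr, the aryl hydrocarbon receptor, read 289, 796 and 1379 (2.19). The aldehyde dehydrogenase genes Aldh1a1 (207, 427 and 746) and Aldh3a1 (2262, 3068 and 5929.8) and the metallothionein genes Mt1 (4839.8, 9448 and 13527) and Mt2 (3874, 5262 and 8176) were higher, and Crabp1, a retinoic acid-binding protein, was lower (2813, 1450.4 and 1046). Some surface protein genes were higher mostly by day 5: Msln, mesothelin, read 2906, 6459 and 8574, Upk1b, a uroplakin, 1017, 2302 and 2474, and Cd34 410.5, 1146 and 1639. Irak3, a brake on Toll-like receptor signalling, read 133, 358 and 929, and Sptssb, a small subunit of serine palmitoyltransferase, 248, 799.5 and 1806. These sets were assembled from single genes and were not compared with lists fixed in another way.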
